A study of Mus musculus with 24 samples.

Results

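The change in gene expression of 3T3-L1 pre-adipocytes that were induced to become fat cells in the presence of ML-792, an inhibitor of SUMO conjugation, was followed from day -2 to day 1. The libraries were chosen by their labels alone, as those treated with ML-792 on these days. They were 3 at day -2 and 3 at day 1, lettered A, B and C on each day, or 6 of the 24 libraries of the series. 3T3-L1 is an immortalized mouse embryo fibroblast line that turns into fat cells when it is given adipogenic hormones, so each group is a sample of 1 cell line and not of fat tissue. Cells of both days were given ML-792 at 0.5 µM. At day -2 they grew in maintenance medium with bovine calf serum, and at day 1 they were in induction medium with fetal bovine serum, insulin (10 µg/mL), 3-isobutyl-1-methylxanthine (IBMX, 0.5 mM) and dexamethasone (1 mM as the labels give it). All cells received 4-thiouridine at 100 µM for 45 min before collection. Serum, hormones and days in culture changed together, and their parts in a difference cannot be told apart. How long the day -2 cells of these libraries had been exposed to ML-792 is not given in the sources used here. For its viability assay the study states that treatment began at day -2. DMSO, the vehicle, was given in place of ML-792 to the libraries used for comparison, 3 on each of the same days.

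As background, the hormone mixture acts through known receptors and messengers. Dexamethasone activates the glucocorticoid receptor, IBMX blocks phosphodiesterases and so raises cAMP, and insulin also acts through the receptor of insulin-like growth factor. C/EBPβ, C/EBPδ and Krüppel-like factors such as KLF5 are the early factors that turn on PPARγ and C/EBPα, which in turn drive the genes of the fat cell, and between these stages the confluent cells divide again (mitotic clonal expansion). SUMO is a small protein that is joined to lysines of other proteins, many of them transcription factors and chromatin proteins. It is activated by SAE1 and UBA2, passed to UBC9 and attached with the help of ligases such as the PIAS family, and SENP proteases take it off again. ML-792 blocks the activating enzyme. 4-Thiouridine enters RNA made during the labelling time and is read as T-to-C changes, so labelled reads (SLAMseq) stand for newly made RNA and all reads of the same library (QuantSeq, total reads) for the RNA present.

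The data were counts of total and labelled reads for 91830 annotated 3′UTR entries of 26995 gene symbols (build mm10). The 6 libraries held 13554718 to 27013352 total reads and 136029 to 724626 labelled reads, so labelled values rest on far fewer reads. Values are given as normalized counts, which are reads scaled to a library of 18300638 reads by the factors of the total counts, and each gene is represented by 1 entry, the one with the most total reads on average. A fold change is the fitted change from day -2 to day 1 on the log2 scale ± its standard error (SE), with the P-adj of edgeR's quasi-likelihood test. The SE was derived from that test, as the absolute log2 fold change over the square root of the F statistic. Triplets of values are in the order A, B, C. Where groups of a gene are said not to overlap, this describes its libraries. The share of all genes with such groups is not given. Correlations between replicates were 0.976 to 0.983 at day -2 and 0.956 to 0.976 at day 1 in total reads, and 0.865 to 0.866 and 0.692 to 0.743 in labelled reads. All 10 pre-adipocyte and fibroblast markers were detected (Cd34 with 2 reads at day 1), with a summed level of 484200 to 659500 normalized counts at day -2 and 261200 to 372600 at day 1. Col1a1 and Col1a2 had the highest levels in this sum. Of the 10 markers 2 were called higher and 5 lower (P-adj under 0.01). Pdgfra went from 2939, 3146 and 2851 normalized counts at day -2 to 4745, 4904 and 4834 at day 1. The summed level of 6 adipocyte markers was 1234 to 1457 at day -2 and 4008 to 6308 at day 1. Markers of other cell types were low: 32.5 to 101 for 6 macrophage genes, at most 20.5 for endothelial, 7.49 for epithelial and 38.3 for muscle genes, and Ptprc, Tie1, Epcam and Actn2 had no read in any of the 6 libraries. In bulk samples, fewer cells of a type and less RNA per cell cannot be told apart.

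The share of reads that carried label fell in each lettered set. It was 3.06, 2.74 and 2.68% of all reads in the day -2 libraries A, B and C, and 1.08, 1.00 and 1.09% at day 1. Every day 1 library lay below every day -2 library, and the mean went from 2.83% ± 0.206 to 1.06% ± 0.048 (SD, n = 3), a difference of -1.77 percentage points or a share 2.67-fold lower. The two-sided exact permutation test gave p = 0.1, the smallest p that 3 against 3 libraries allow. In DMSO the share went from 3.17% ± 0.485 to 1.27% ± 0.0798 (SD, n = 3).

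**Figure D1:**
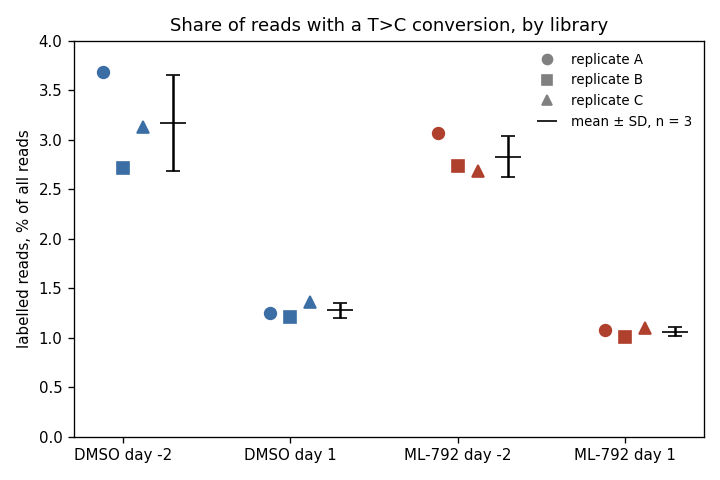
Labelled reads as a percentage of all reads (vertical axis) in each library of the DMSO and ML-792 groups at day -2 and day 1, with points for libraries and bars for mean ± SD. The ML-792 libraries sit between 2.68 and 3.06% at day -2 and between 1.00 and 1.09% at day 1.

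In total reads, more genes fell than rose during induction under ML-792. Of 13331 genes tested, 3306 changed between day -2 and day 1 (24.8%; edgeR quasi-likelihood test, P-adj under 0.01), 1407 of them higher (10.6%) and 1899 lower (14.2%). Over all 26563 entries the calls numbered 5442, with 2214 higher and 3228 lower. The median log2 fold change of all genes was -0.01. The same contrast in DMSO called 21.7% of the genes, with 9.46% higher and 12.2% lower. Leaving out the libraries of a letter in every condition gave 1217 genes for A, 3864 for B and 1658 for C, and a fit blocked on the letter called 4769 genes, 2111 higher and 2658 lower.

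The genes with the highest fitted change had almost no reads before induction. Rasd1, a Ras-like GTPase known for its induction by dexamethasone, had no read in any day -2 library and 298, 383 and 383 normalized counts in the day 1 libraries A, B and C, at least 477-fold higher when the day -2 group is set to a floor of 3 reads in all. On the same basis the keratin genes Krt9 and Krt36 were at least 175-fold and 143-fold higher. Scgb1c1, a secretoglobin, went from 1 read in all to 1217, a ratio of 1710 (95% interval 306.3 to 67590, counting error only). Cxcl13, a chemokine that attracts B cells, was at 1.78, 0.707 and 0.670 normalized counts at day -2 and at 593, 526 and 584 at day 1. Its log2 fold change was 8.98 ± 0.41 (P-adj = 8.29e-14). These genes were picked among called genes whose groups do not overlap, so their separation is no further support.

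At the other end, genes that were read at day -2 had almost no reads at day 1. Sync, which encodes the intermediate filament-linked protein syncoilin, was at 77.5, 55.9 and 64.4 normalized counts at day -2 and had no read at day 1, at least 62.2-fold lower. Mrvi1, a substrate of cGMP-dependent kinase, was at least 47.9-fold lower, Crabp1, a retinoic acid-binding protein, at least 31.3-fold lower, and Gpihbp1, the anchor of lipoprotein lipase on endothelium, at least 19.5-fold lower. Fitted fold changes of genes without reads in a group depend on the prior count and are not quoted. The fall of Crabp1 was not called without the libraries lettered A (P-adj = 0.0275) or with DESeq2 (0.105), and that of Gpihbp1 not without C (P-adj = 0.0167). Ifit3b, an interferon-stimulated gene, fell from 363, 214 and 253 to 1.07, 1.16 and 1.86 normalized counts (log2 fold change -7.51 ± 0.62, P-adj = 5.39e-09). The genes of this paragraph, too, were picked among called genes whose groups do not overlap. Ifit3b is a close copy of Ifit3, so how reads were split between these genes is uncertain.

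**Figure D2:**
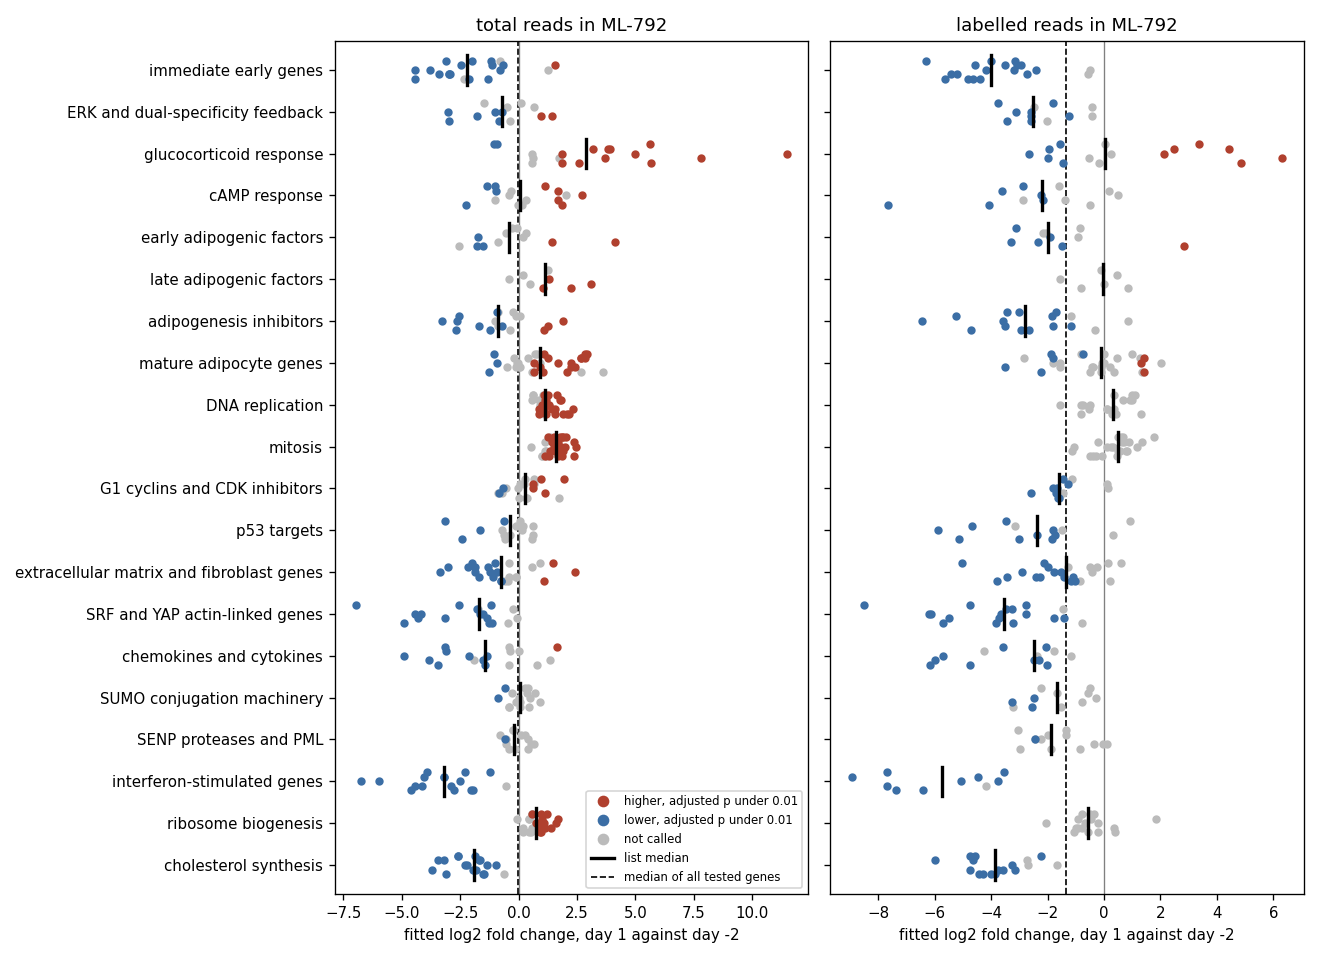
Log2 fold change (day 1 over day -2, ML-792) of each tested member of the 20 gene lists, in total reads and in labelled reads, with called members marked and the list median drawn as a line. Mitosis and DNA replication members lie above 0 in total reads, and immediate early, interferon-stimulated and cholesterol synthesis members mostly below it.

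The glucocorticoid targets had the highest median change of the 20 lists in total reads. Of 18 members tested in total reads, 12 rose, 2 fell and 4 did not pass the test, with a median log2 fold change of 2.89 against -0.01 over all genes. The DMSO contrast called 9 of this list higher and 1 lower, with a median of 1.43. Fkbp5, a co-chaperone of the glucocorticoid receptor (3′UTR at chr17:28398753-28401046, minus strand), was at 1027, 919.9 and 954 normalized counts in day -2 libraries A, B and C and at 14800, 13530 and 15510 at day 1. Each day 1 value lay far above each day -2 value (log2 fold change 3.92 ± 0.16, P-adj = 1.77e-14). Glul, glutamine synthetase (chr1:153908183-153909723, plus strand), showed the same order, with 328, 249.6 and 306 at day -2 and 14080, 13660 and 16170 at day 1 (log2 fold change 5.64 ± 0.18, P-adj = 1.11e-16). Lcn2, a secreted lipocalin, was at 33.9, 44.5 and 40.2 and then at 7598, 10050 and 9001 (log2 fold change 7.80 ± 0.25, P-adj = 1.41e-16). Both genes had day 1 libraries wholly above the day -2 libraries.

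Metallothionein 2 belongs to the same list and is the member whose induction differed between treatments in both kinds of reads. Mt2, a small protein that binds zinc and copper (chr8:94173428-94173567, plus strand), was at 8775, 8277 and 9467 normalized counts at day -2 and at 84600, 64130 and 91620 at day 1 under ML-792 (log2 fold change 3.18 ± 0.17, P-adj = 1.46e-12). In DMSO the means were 9026 ± 1155 and 20690 ± 1504 (SD, n = 3), a log2 fold change of 1.20. The day 1 libraries lay above the day -2 libraries under ML-792, and the difference between the log2 fold changes was 1.98 ± 0.22 (SE, P-adj = 1.76e-05). Mt1, Lcn2 and Rasd1 were the other members with a larger increase under ML-792, with differences of 1.11 and 1.55 for Mt1 and Lcn2. Rasd1, without reads at day -2 in ML-792, has no such value that is free of the prior count. The 2 members that fell were Sgk1, a kinase regulated by serum and glucocorticoids (log2 fold change -0.94 ± 0.18, P-adj = 0.000238), and Nr3c1, the glucocorticoid receptor itself (log2 fold change -1.06 ± 0.21, P-adj = 0.00041). Both calls were lost without the A libraries (Sgk1 P-adj = 0.0206), as was the difference of Lcn2 (P-adj = 0.153), and the latter also without C (P-adj = 0.233).

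The cAMP list split. Of 16 members, 5 rose, 4 fell and 7 did not pass, and the median was 0.06. The 5 that rose were Rgs2 and the phosphodiesterase genes Pde4b, Pde4d, Pde7b and Pde10a, whose products break down cyclic nucleotides, for example Pde4d with 515, 592 and 527 normalized counts at day -2 and 1814, 1735 and 1674 at day 1 (log2 fold change 1.68 ± 0.14, P-adj = 2.27e-09). The 3 day 1 values of Pde4d lay above those of day -2. The 4 that fell were the orphan receptor gene Nr4a1 (log2 fold change -1.36 ± 0.22, P-adj = 4.06e-05), the transcription factor gene Creb3l1 (log2 fold change -2.27 ± 0.35, P-adj = 2.95e-05), Pde4a and Ppargc1a, a coactivator of mitochondrial genes. Id1 had a log2 fold change of -0.34 and no call. The counts without the A libraries were 2 higher and 0 lower (Nr4a1 P-adj = 0.0147, Creb3l1 P-adj = 0.0123). In DMSO 6 members rose and 4 fell, and the median was 0.58.

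Rgs2 was the cAMP member whose rise was smaller under ML-792. Rgs2, which shortens signalling by G proteins (chr1:143999338-144001679, minus strand), was at 4875, 3755 and 4556 normalized counts at day -2 and 11140, 8641 and 9427 at day 1 under ML-792 (log2 fold change 1.15 ± 0.17, P-adj = 8.93e-06). In DMSO it went from 3790 ± 606 to 27360 ± 3943 (SD, n = 3), a log2 fold change of 2.85. Rgs2 therefore stood above its day -2 libraries on day 1 in ML-792, by less than in DMSO, with a difference of -1.70 ± 0.23 (SE, P-adj = 0.000174). Ppargc1a differed the other way, with a log2 fold change of -0.95 under ML-792 and -2.60 in DMSO (difference 1.65, P-adj = 0.0133). The difference of Rgs2 was not called without the libraries lettered A (P-adj = 0.108).

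**Figure D3:**
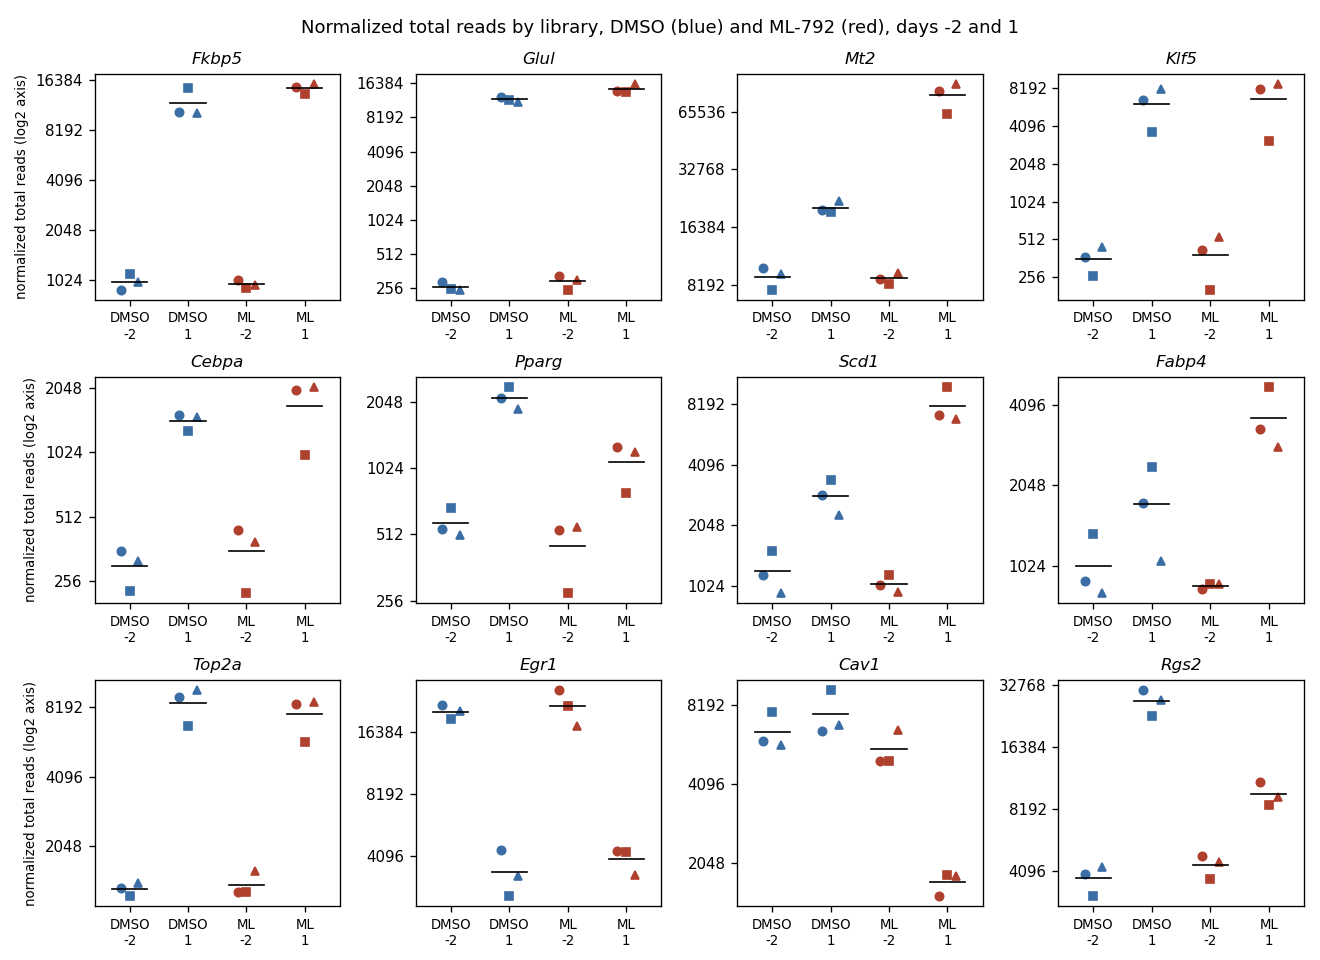
Normalized counts of total reads (log2 axis) for 12 named genes in each library at day -2 and day 1, DMSO in blue and ML-792 in red. Fkbp5, Glul and Klf5 rise in both treatments, Egr1 falls in both, and the ML-792 libraries of Mt2 and Scd1 end higher and those of Rgs2 and Cav1 lower than the DMSO libraries at day 1.

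The early adipogenic factors did not move as a set. Of 12 members tested, Cebpb and Klf5 rose, Klf4, Klf6 and Zfp423 fell and 7 did not pass, with a median of -0.42. Klf5, a Krüppel-like factor that acts on the Pparg promoter (chr14:99313330-99313412, plus strand), was at 422, 205 and 531 normalized counts in libraries A, B and C of day -2 and at 8011, 3111 and 8816 at day 1 (log2 fold change 4.11 ± 0.44, P-adj = 2.92e-07). Day 1 libraries of Klf5 lay wholly above day -2 libraries, and the DMSO log2 fold change was 4.08. Cebpb, an early C/EBP factor, was at 1442, 1891 and 1502 and 3470, 5574 and 3954 (log2 fold change 1.43 ± 0.26, P-adj = 0.000126). Cebpd, its partner, was at 2456, 2246 and 2255 and 2460, 2656 and 2733, groups that did not overlap (log2 fold change 0.17 ± 0.17, P-adj = 0.481). Cebpd rose in DMSO (log2 fold change 0.87), and the difference between treatments, -0.70, had P-adj = 0.224, or 0.0384 in a fit blocked on the letter (difference -0.70). The zinc-finger factor Zfp423, which commits cells to the fat lineage, was at 598, 577 and 440.5 and then 194, 168 and 110 (log2 fold change -1.78 ± 0.21, P-adj = 4.11e-07), and Klf6 at 20140, 18770 and 17170 and then 5832, 6143 and 5025 (log2 fold change -1.72 ± 0.19, P-adj = 1.76e-07). Both had their day 1 libraries below those of day -2. The rise of Cebpb was not called without the libraries lettered C (P-adj = 0.0126), and the fit blocked on the letter called 5 early factors lower.

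Among the late factors 4 of 8 rose, none fell and the median was 1.15, as against 4 of 8 and 1.40 in DMSO. Cebpa, which encodes C/EBPα (chr7:35120499-35121928, plus strand), was at 446, 226 and 392 normalized counts at day -2 and at 2006, 989.9 and 2066 at day 1 (log2 fold change 2.25 ± 0.32, P-adj = 7.23e-06). Pparg, the fat cell's nuclear receptor (chr6:115490196-115490404, plus strand), was at 534, 278 and 554 and at 1285, 789.8 and 1215, groups that did not overlap (log2 fold change 1.27 ± 0.47, P-adj = 0.0455). So Cebpa rose, while Pparg passed the test in DMSO (log2 fold change 1.90) and not under ML-792, and the difference between treatments was not called (-0.63 ± 0.65, SE, P-adj = 0.987). The others that rose were Srebf1, a regulator of lipid synthesis (log2 fold change 1.28 ± 0.19, P-adj = 1.06e-05), the retinoid receptor gene Rxra (log2 fold change 1.03 ± 0.18, P-adj = 0.000108) and Klf15 (log2 fold change 3.08 ± 0.57, P-adj = 0.000189). Pparg was called without the B libraries (P-adj = 0.00141), in a fit of these 6 libraries alone (0.00629) and with no filter on low counts (1.54e-08), and Rxra was not without A (P-adj = 0.0262).

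Inhibitors of adipogenesis changed in both directions. Of 18 tested, 8 fell, 3 rose and 7 did not pass, with a median of -0.89, against 7 lower and 1 higher in DMSO. Only 4 were called lower without the A libraries, and 5 without C. Klf2, which represses Pparg, was at 1877, 1495 and 1547 normalized counts at day -2 and 160.5, 168 and 173 at day 1 (log2 fold change -3.29 ± 0.20, P-adj = 1.67e-11). Ddit3, the stress-linked factor CHOP that blocks C/EBPβ, was at 4306, 3796 and 4825 and 719, 598 and 734 (log2 fold change -2.66 ± 0.17, P-adj = 3.16e-11). For both, all day 1 libraries lay below all day -2 libraries. Klf3, another repressive Krüppel-like factor, was at 3689, 1578 and 2857 and 3567, 1197 and 2847, groups that overlapped (log2 fold change -0.09 ± 0.48, P-adj = 0.917). In labelled reads Klf3 was called lower. That call was lost without the libraries lettered A (log2 fold change -1.63, P-adj = 0.0268) and when scaled by labelled reads (-0.51, P-adj = 0.415).

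The 3 inhibitors that rose were Klf10, Foxo1 and Nr2f2. Klf10, a factor induced by TGF-β (chr15:38294406-38295904, minus strand), was at 1657, 1175 and 1358 normalized counts at day -2 and at 3462, 2870 and 3594 at day 1 under ML-792 (log2 fold change 1.24 ± 0.22, P-adj = 0.000128), while its DMSO means were 1693 ± 366 and 1346 ± 156 (SD, n = 3). It ended above its start under ML-792, its DMSO log2 fold change was -0.33 with no call, and the treatments differed by 1.57 ± 0.31 (SE, P-adj = 0.00682). Foxo1, a factor held out of the nucleus by insulin signalling, was at 393, 489 and 351 and 1359, 1681 and 1569 (log2 fold change 1.90 ± 0.15, P-adj = 1.23e-09), with a difference from DMSO of 0.86 (P-adj = 0.0393). Its day 1 libraries lay above those of day -2. The rise of Klf10 had P-adj = 0.0133 without the C libraries, and the differences of Klf10 and Foxo1 were not called without A (P-adj = 0.318 and 0.572) or without C (0.276 and 0.667). That of Foxo1 was also lost without single ML-792 libraries, with no filter and in a fit of 12 libraries.

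About as many genes of the mature fat cell rose by day 1 as did not. Of 33 tested, 16 rose, 3 fell and 14 did not pass, with a median of 0.89, against 11 higher, 3 lower and a median of 0.48 in DMSO, and 10 were called higher without the libraries lettered C. Scd1, stearoyl-CoA desaturase (chr19:44394450-44397918, minus strand), was at 1037, 1152 and 948 normalized counts at day -2 and 7221, 9930 and 6893 at day 1 (log2 fold change 2.94 ± 0.24, P-adj = 1.11e-09). Its DMSO means were 1205 ± 289 and 2864 ± 565 (SD, n = 3), and its rise under ML-792 was larger by 1.69 ± 0.31 on the log2 scale (SE, P-adj = 0.0035). Acsl1, which activates fatty acids, was at 667, 607 and 663 and 3656, 4557 and 4126 (log2 fold change 2.67 ± 0.17, P-adj = 2.99e-11). Dgat2, which makes the last step of triglyceride synthesis, was at 74.0, 48.1 and 75.8 and 462, 405 and 400 (log2 fold change 2.68 ± 0.21, P-adj = 9.6e-10). Day 1 libraries of these genes lay above their day -2 libraries, and the rise was larger than in DMSO for Acsl1 by 1.12 (P-adj = 0.00905) and for Dgat2 by 1.49 (P-adj = 0.00635). Cd36, a fatty acid transporter, and Plin2, a lipid droplet coat protein, were the other 2 members with a larger rise (difference 1.73 for Cd36). The differences of Scd1, Acsl1 and Dgat2 had P-adj = 0.364, 0.44 and 0.361 when the libraries lettered A were left out, and that of Acsl1 had 0.319 without C.

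The classical markers of the fat cell were uneven. Fabp4, the fatty acid-binding protein aP2, was at 841, 879.6 and 878 normalized counts at day -2 and 3325, 4756 and 2842 at day 1 (log2 fold change 2.07 ± 0.28, P-adj = 3.74e-06), groups that did not overlap. In DMSO its log2 fold change was 0.77, and the difference of 1.30 was not called (P-adj = 0.122), whereas in a fit blocked on the letter it was 1.28 with P-adj = 0.00643, and it was also called with DESeq2 (0.0313) and with no filter (0.000376). Adipoq, adiponectin, was at 327, 195 and 294 and 392, 559.5 and 359 (log2 fold change 0.68 ± 0.23, P-adj = 0.0252), groups that did not overlap. Adipoq was called higher with DESeq2 (P-adj = 0.00836) and with no filter on low counts (0.00496). The 3 members that fell make fatty acids or their precursors: Elovl6, an elongase, was at 1049, 1206 and 1032 and 503, 683 and 420.5 (log2 fold change -1.03 ± 0.26, P-adj = 0.00346), and Acly and Aacs fell by 0.93 and 1.29 on the log2 scale. Elovl6 libraries of day 1 all lay below those of day -2, and without the libraries lettered A the count of lower members was 1 (Elovl6 P-adj = 0.116, or 0.0512 without C).

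Most genes of DNA replication and mitosis were called higher under ML-792 and in DMSO. Of 35 replication genes, 25 rose and none fell, with a median of 1.15 (DMSO 23 and 0.96), and of 36 mitosis genes 28 rose and none fell, with a median of 1.61 (DMSO 27 and 1.46). No member of either list had a called difference between treatments. Top2a, the topoisomerase that untangles chromosomes (3′UTR at chr11:98992947-98993413, minus strand), was at 1298, 1295 and 1600 normalized counts at day -2 and 8450, 5802 and 8642 at day 1 (log2 fold change 2.45 ± 0.22, P-adj = 7.57e-09). Its day 1 libraries all lay above those of day -2, and the DMSO log2 fold change was 2.67. Rrm2, the subunit of ribonucleotide reductase made in S phase, was at 168, 229.8 and 292 and 1048, 1227 and 1225 (log2 fold change 2.34 ± 0.22, P-adj = 1.63e-08), groups that did not overlap. Cenpa, the centromeric histone, was at 457, 379.7 and 686 and 2745, 1752 and 3270 (log2 fold change 2.35 ± 0.25, P-adj = 7.77e-08), groups that did not overlap. Mcm4 (log2 fold change 1.17 ± 0.18, P-adj = 2.19e-05) and Mcm6 (log2 fold change 1.15 ± 0.20, P-adj = 9.9e-05), of the replicative helicase, Prim1, the primase (log2 fold change 1.89 ± 0.23, P-adj = 5.71e-07), Rpa2, a single-strand DNA-binding protein (log2 fold change 1.63 ± 0.15, P-adj = 1.84e-08), and the mitotic kinase genes Aurka (log2 fold change 1.84 ± 0.18, P-adj = 1.85e-08) and Plk1 (log2 fold change 1.53 ± 0.43, P-adj = 0.0098) and the inhibitor of apoptosis Birc5 (log2 fold change 1.66 ± 0.17, P-adj = 4.21e-08) rose too. Without the A libraries the counts were 11 replication and 13 mitosis genes (Mcm6 P-adj = 0.0196, Plk1 P-adj = 0.127), and without C 15 replication genes. Plk1 was also not called without C (P-adj = 0.0966) or without single libraries.

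The stretches of 150 bases before the annotated start of 5 of these genes are printed to show the short motifs that promoters of the mitosis and replication genes hold (RefSeq promoters, GRCm38.p6, 5′ to 3′ on the gene's own strand). Top2a is at chr11:99024190-99024339 (minus strand), Cdk1, the kinase of mitotic entry, at chr10:69352913-69353062 (minus), Ube2c, a ubiquitin-conjugating enzyme of mitotic exit, at chr2:164769779-164769928 (plus), Mcm5 at chr8:75109359-75109508 (plus) and Mcm6 at chr1:128359706-128359855 (minus). Cdk1, Ube2c and Mcm5 were chosen after their values were seen. Capitals mark CCAAT and the cell cycle element TTTGAA in the first 3, and the E2F site TTTGGCGC in the last 2, each on either strand, and none of these motifs contains another.
Top2a: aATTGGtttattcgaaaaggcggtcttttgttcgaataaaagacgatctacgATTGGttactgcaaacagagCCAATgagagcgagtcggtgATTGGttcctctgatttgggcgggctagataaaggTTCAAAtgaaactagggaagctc
Cdk1: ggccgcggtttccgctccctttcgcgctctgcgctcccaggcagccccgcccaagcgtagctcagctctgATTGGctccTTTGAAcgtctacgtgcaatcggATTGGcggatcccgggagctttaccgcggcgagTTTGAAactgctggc
Ube2c: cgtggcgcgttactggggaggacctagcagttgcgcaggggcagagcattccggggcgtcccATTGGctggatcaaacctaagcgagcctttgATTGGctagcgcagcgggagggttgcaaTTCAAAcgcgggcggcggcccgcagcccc
Mcm5: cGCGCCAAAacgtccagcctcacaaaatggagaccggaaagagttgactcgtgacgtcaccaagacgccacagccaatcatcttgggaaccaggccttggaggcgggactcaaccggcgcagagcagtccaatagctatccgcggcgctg
Mcm6: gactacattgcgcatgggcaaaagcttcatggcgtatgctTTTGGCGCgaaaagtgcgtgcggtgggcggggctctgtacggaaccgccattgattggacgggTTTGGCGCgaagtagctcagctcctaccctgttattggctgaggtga

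A search of 32851 RefSeq promoters, from 250 bases before to 50 after the start, found CCAAT in 37.4% of them, TTTGAA in 17.9%, TTTCCCGC in 1.07%, TTTGGCGC in 0.514% and the cAMP element TGACGTCA in 1.79%, counting both strands. Of the 36 mitosis genes 29 had a promoter in this table, and 22 of these (75.9%) held CCAAT, 21 (72.4%) held TTTGAA and none held either of the E2F sites. Of the 35 replication genes 29 had one, and 19 (65.5%) held CCAAT, 4 (13.8%) TTTGAA, 6 (20.7%) TTTCCCGC and 5 (17.2%) TTTGGCGC. In these lists a gene was counted when any of its promoters held the motif, unlike the shares per promoter above. Counted by gene, 9956 genes tested in total reads had a promoter. Of these, 43% held CCAAT, 14.2% TTTGAA, 2.32% TTTCCCGC and 1.09% TTTGGCGC. Such a match is a description of letters and not of a bound site, and the absence of a match says only that these letters are not in this window.

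Some genes of the G1 phase and of ribosome biogenesis passed the test. Of 20 cyclins, their kinases and inhibitors, 5 rose, 2 fell and 13 did not pass, with a median of 0.30. The 5 that rose were Ccnd3, Ccne2 (log2 fold change 1.95 ± 0.40, P-adj = 0.000543), E2f2, Cdkn2c and Cdkn2d, and the 2 that fell were Ccnd2, a D-type cyclin (log2 fold change -0.83 ± 0.14, P-adj = 7.48e-05), and its partner kinase gene Cdk6 (log2 fold change -0.67 ± 0.13, P-adj = 0.00032). None of these 7 calls was made without the libraries lettered A, and 1 was higher without C, while the blocked fit called 6 higher and 4 lower. Ccnd1, with a log2 fold change of 0.33 under ML-792 and -0.52 in DMSO, was the only member of this list with a called difference (0.86, P-adj = 0.00915). Of 25 ribosome biogenesis genes 14 rose, none fell and 11 did not pass, with a median of 0.76 (DMSO 10 higher and 0.65). Nop56, a protein of the particles that methylate ribosomal RNA, was at 296, 396 and 412 normalized counts at day -2 and 999, 1505 and 1029 at day 1 (log2 fold change 1.68 ± 0.28, P-adj = 5.33e-05), groups that did not overlap, and Nolc1 and Nop16 rose by 1.21 and 1.37 on the log2 scale. This count was 2 without the libraries lettered A (Nop56 P-adj = 0.0131) and 6 without C.

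The immediate early genes, which growth factors and serum turn on within minutes, were mostly lower at day 1. Of 20 tested, 16 fell, 1 rose and 3 did not pass, with a median of -2.23, against 14 lower, 1 higher and a median of -2.15 in DMSO. Egr1, a zinc-finger factor, was at 26150, 21940 and 17490 normalized counts at day -2 and 4297, 4277 and 3309 at day 1 (log2 fold change -2.46 ± 0.23, P-adj = 1.2e-08). Btg2, an antiproliferative gene, was at 7139, 6879 and 6562 and 413, 592 and 477 (log2 fold change -3.79 ± 0.22, P-adj = 3.19e-12). In both genes the day 1 libraries lay wholly below the day -2 libraries. Egr2 fell with them (log2 fold change -3.10 ± 0.23, P-adj = 3.71e-10), and Egr3, from 5085, 2824 and 3343 to 179.7, 143 and 204, fell further than in DMSO (difference -1.27, P-adj = 0.0643, or 0.508, 0.108 and 0.417 without the libraries lettered A, B or C). Fosl1, an AP-1 subunit, was the member that rose (log2 fold change 1.55 ± 0.19, P-adj = 1.21e-06).

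Some feedback inhibitors of ERK signalling and p53 targets were called lower. Of 13 feedback genes 6 fell, 2 rose and 5 did not pass, with a median of -0.71. Spry1 and Spry2, Sprouty inhibitors of receptor tyrosine kinase signalling, fell (log2 fold change -2.98 ± 0.41, P-adj = 5.3e-06 and log2 fold change -1.80 ± 0.19, P-adj = 9.02e-08), as did Dusp1, a phosphatase of MAP kinases (log2 fold change -0.83 ± 0.15, P-adj = 0.000193). The 2 that rose were Errfi1 (log2 fold change 0.97 ± 0.19, P-adj = 0.000381) and Dusp10, a phosphatase of p38 and JNK, which was at 156, 142 and 177 normalized counts at day -2 and 383, 412 and 488 at day 1, groups that did not overlap (log2 fold change 1.43 ± 0.20, P-adj = 4.98e-06). Dusp10 had a DMSO log2 fold change of 0.08, and the difference was 1.35 (P-adj = 0.0107). Of 15 p53 targets 4 fell, none rose and 11 did not pass, with a median of -0.35. This share of called members is about that of all genes, 24.8%, and the blocked fit called 2 higher and 5 lower. They were the polo-like kinase genes Plk2 (log2 fold change -3.13 ± 0.21, P-adj = 6.04e-11) and Plk3 (log2 fold change -2.42 ± 0.37, P-adj = 2.11e-05), Bbc3, which encodes PUMA (log2 fold change -1.64 ± 0.25, P-adj = 1.36e-05), and Zmat3. Cdkn1a, which encodes p21, had a log2 fold change of 0.07 and no call, and Trp53inp1 was the only p53 target with a called difference from DMSO (1.02, P-adj = 0.0827). Left without the A libraries, the counts were 4 feedback genes and 2 p53 targets (Dusp1 P-adj = 0.036, Bbc3 P-adj = 0.011), and the difference of Dusp10 had P-adj = 0.276, or 0.276 without C.

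Actin-linked targets of SRF and YAP were mostly lower. Of 18 tested, 14 fell, none rose and 4 did not pass, with a median of -1.69 (DMSO 15 lower). Ankrd1, a nuclear ankyrin-repeat protein often used as a readout of YAP, was at 298, 397 and 255 normalized counts at day -2 and 2.14, 3.49 and 1.86 at day 1 (log2 fold change -6.94 ± 0.52, P-adj = 3.83e-10). Myl9, a regulatory light chain of myosin, was at 2450, 2606 and 2404 and 110.2, 136 and 129 (log2 fold change -4.31 ± 0.30, P-adj = 1.38e-10). Day 1 libraries of both lay below every day -2 library. Cnn2, a calponin (log2 fold change -3.16 ± 0.19, P-adj = 7.23e-12), Tpm1, a tropomyosin (log2 fold change -2.53 ± 0.18, P-adj = 1.77e-10), and Amotl2, a partner of YAP (log2 fold change -1.78 ± 0.16, P-adj = 7.59e-09), fell as well.

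Of 25 matrix and fibroblast genes, 14 fell, 3 rose and 8 did not pass, with a median of -0.74 (DMSO 10 lower and 4 higher). The lower count was 8 without the A libraries and 9 without C, and the higher count was 5 in the blocked fit. Col1a1, the main chain of type I collagen, was at 167700, 108100 and 147700 normalized counts at day -2 and 72730, 45250 and 79990 at day 1 (log2 fold change -1.10 ± 0.22, P-adj = 0.000363). Its day 1 libraries lay below those of day -2. Thbs1 and Thbs2, the thrombospondins, fell (log2 fold change -3.36 ± 0.22, P-adj = 2.96e-11 and log2 fold change -2.998 ± 0.15, P-adj = 6.56e-13), Thbs2 by less than in DMSO (difference 0.97, P-adj = 0.0104). The 3 that rose were the basement membrane collagen genes Col4a1 (log2 fold change 1.47 ± 0.14, P-adj = 1.18e-08) and Col4a2 and the elastin gene Eln. Eln went from 82.9, 55.1 and 61.7 to 381, 255 and 434 normalized counts (log2 fold change 2.42 ± 0.35, P-adj = 9.73e-06), against a DMSO log2 fold change of -1.09 (difference 3.52, P-adj = 0.000277). Lum, Fbn1, Tnc and Mgp, all matrix proteins, had a more negative change under ML-792 than in DMSO, with differences of -2.04, -1.38, -1.19 and -1.06 in this order. The pre-adipocyte marker Pdgfrb fell by 4.11 on the log2 scale and the stem cell antigen gene Ly6a rose by 3.79, with a difference from DMSO of 1.80 for Ly6a. When the A libraries were left out, Col1a1 had P-adj = 0.0444 and the difference of Thbs2 P-adj = 0.521, or 0.354 without C.

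Of 17 chemokine and cytokine genes 9 fell, 1 rose (Hgf, log2 fold change 1.63 ± 0.25, P-adj = 1.92e-05) and 7 did not pass, with a median of -1.45 (DMSO 9 lower, 2 higher, -1.85). Ccl2, which recruits monocytes, was at 2577, 2921 and 3039 normalized counts at day -2 and 201, 384 and 208 at day 1 (log2 fold change -3.43 ± 0.32, P-adj = 2.13e-08), with all day 1 libraries below day -2. Ccl7 (log2 fold change -3.85 ± 0.25, P-adj = 5.07e-11) and the macrophage growth factor gene Csf1 (log2 fold change -3.09 ± 0.24, P-adj = 5.7e-10) fell too. Cxcl12, a chemokine that stromal cells secrete (chr6:117173583-117175069, plus strand), was at 11680, 13180 and 12440 and 4430, 5323 and 4941 under ML-792 (log2 fold change -1.34 ± 0.18, P-adj = 3.95e-06), and in DMSO at 14150 ± 1635 and 14050 ± 4202 (SD, n = 3). The ML-792 groups did not overlap, and the difference from DMSO was -1.33 ± 0.26 (SE, P-adj = 0.00515). That difference had P-adj = 0.297 without the A libraries and 0.259 without C. Cx3cl1 had a more negative change than in DMSO (difference -1.32, P-adj = 0.0378) and Cxcl5 a more positive one (1.45, P-adj = 0.0905).

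Interferon-stimulated genes and genes of cholesterol synthesis were the lists with nearly all members lower. Of 17 interferon-stimulated genes 16 fell and Cmpk2 did not pass, with a median of -3.17 (DMSO 17 lower, -3.01). Ifit1, an inhibitor of viral translation, was at 2235, 893 and 1626 normalized counts at day -2 and 59.9, 86.1 and 48.5 at day 1 (log2 fold change -4.62 ± 0.42, P-adj = 1.75e-08), with day 1 wholly below day -2. Ddx58, the RNA sensor RIG-I (log2 fold change -2.49 ± 0.23, P-adj = 8.97e-09), and Ifi44 (log2 fold change -4.03 ± 0.32, P-adj = 9.96e-10) fell, and Rsad2, the antiviral enzyme viperin, fell by less than in DMSO (difference 3.28, P-adj = 0.0712). Of 19 cholesterol genes 18 fell and Pmvk did not pass, with a median of -1.92 (DMSO 17 lower, -2.11). Hmgcs1, an enzyme of the early steps, was at 7782, 8770 and 6298 normalized counts at day -2 and 1954, 2604 and 1900 at day 1 (log2 fold change -1.82 ± 0.20, P-adj = 1.46e-07), again with no overlap. Sc5d, an enzyme of the late steps, fell as well (log2 fold change -1.96 ± 0.17, P-adj = 2.78e-09).

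Few RNAs of the SUMO pathway itself passed the test. Of 16 conjugation genes 2 fell, none rose and 14 did not pass, with a median of 0.07 (DMSO 1 lower, 0 higher and 0.12). Over all genes 14.2% were lower and 10.6% higher, so the share of lower conjugation genes was near that of all genes. The 2 were Pias2 (log2 fold change -0.56 ± 0.16, P-adj = 0.009) and Nsmce2, a ligase of the SMC5/6 complex (log2 fold change -0.87 ± 0.23, P-adj = 0.00591), and 0 were called without the libraries lettered A. Uba2, whose product is a subunit of the enzyme that ML-792 blocks, was at 779, 627 and 841 normalized counts at day -2 and 1126, 1209 and 1315 at day 1 (log2 fold change 0.70 ± 0.21, P-adj = 0.012), groups that did not overlap. Uba2 was called higher with DESeq2 (P-adj = 0.00358), with 1 entry per gene (0.00541) and with no filter (0.00843). It was also called in fits of 12 (P-adj = 0.00862) and 6 libraries (0.00503). Mul1 had a log2 fold change of -0.11 with no call. Of 14 SENP and PML body genes Desi2 fell (log2 fold change -0.59 ± 0.13, P-adj = 0.000779) and 13 did not pass, with Senp2 at 0.40 and Senp7 at -0.54, and the median was -0.19. In DMSO 2 of these 14 were lower and 0 higher. Desi2 was not called without the libraries lettered A (P-adj = 0.0664) or C (0.035), with no filter (0.0322) or in a fit of these 6 libraries alone (0.0114). Sp100, a PML body protein that interferon induces, differed between treatments (-0.55 under ML-792 and -3.47 in DMSO, difference 2.92, P-adj = 0.0479). In the fit blocked on the letter, 3 conjugation genes were higher and 3 lower, and 3 SENP and PML body genes were higher and 3 lower. Among them were Uba2 (P-adj = 0.00276), Senp2 (0.00912) and Senp7 (0.0073).

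In labelled reads, scaled with the factors of the total reads, the whole distribution moved down with the labelled share. The median log2 fold change of 6434 genes was -1.37, and 1554 were called (24.2%), 39 higher (0.606%) and 1515 lower (23.5%). DMSO had 22.1% called, 0.668% higher and 21.4% lower. By entry the calls were 53 higher and 2461 lower of 10589. When the libraries were scaled by their labelled reads, which sets the common shift aside, the median was 0.03 and the calls were 239 entries higher and 322 lower. A labelled gene called lower may therefore lie above the common shift of -1.37. Leaving out the A libraries gave 542 genes and C 813.

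Against this shift, 39 genes rose in labelled reads. Ren1, renin, had 3 labelled reads in the day -2 libraries and 425 at day 1, a ratio of 199 (95% interval 67.7 to 969, counting error only). Fam110c and Rasd1, both without a labelled read at day -2, were at least 14.1-fold and 13.1-fold higher, Wfdc21 was at least 6.56-fold higher, and Emb, a partner of monocarboxylate transporters, had a ratio of 63.2 (95% interval 10.8 to 2552). Labelled Fkbp5 was at 19.6, 9.90 and 34.9 normalized counts at day -2 and 105, 84.9 and 94.2 at day 1 (log2 fold change 2.13 ± 0.42, P-adj = 7.32e-05). Labelled Glul was at 4.46, 7.07 and 2.68 and 117, 74.4 and 121 (log2 fold change 4.43 ± 0.49, P-adj = 1.07e-10), and labelled Klf5 at 23.2, 11.3 and 10.1 and 153, 54.7 and 105 (log2 fold change 2.83 ± 0.57, P-adj = 0.000205). All 3 had day 1 libraries above day -2, and Klf5 was not called without the libraries lettered C (P-adj = 0.0244). The labelled calls of Emb, Rasd1 and Wfdc21 were lost without the libraries of 1 letter, and those of Emb and Wfdc21 without single libraries. By list, 6 of 15 glucocorticoid targets rose and 5 fell (median 0.02), 3 of 28 mature adipocyte genes rose and 5 fell (median -0.10), and 1 of 10 early adipogenic factors rose and 5 fell (median -1.99). The 3 adipocyte genes were Fabp4 (log2 fold change 1.32 ± 0.33, P-adj = 0.00126), Scd1 (log2 fold change 1.41 ± 0.36, P-adj = 0.00177) and Acsl1 (log2 fold change 1.42 ± 0.31, P-adj = 0.00026), and the 5 lower ones Elovl6, Fasn, Aacs, Lpin1 and Lpl. These were 1 and 0 without the A libraries, and 7 and 0 with scaling by labelled reads. The labelled rise was not called without the libraries lettered A or B for Fabp4 (P-adj = 0.0119 and 0.0115), A or C for Scd1 (0.0114 and 0.0811) and C for Acsl1 (0.0283). Scaled by labelled reads, the glucocorticoid targets had 7 higher and 1 lower, and the early adipogenic factors 1 higher and 1 lower.

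The labelled genes with the largest fall had almost no labelled reads at day 1. Edn1, endothelin-1, had 232 labelled reads at day -2 and none at day 1, at least 55.0-fold lower. On the same floor of 3 reads Ifit3 was at least 54.1-fold, Ankrd1 at least 43.7-fold and Vat1 at least 27.5-fold lower. Wisp1, a matricellular target of WNT, had a ratio of 440 (95% interval 122 to 3639). Among lists, 17 of 19 immediate early genes fell (median -4.02), 16 of 18 SRF and YAP genes (-3.56), 14 of 17 cholesterol genes (-3.87), 13 of 16 inhibitors of adipogenesis (-2.81), 9 of 13 chemokines (-2.50), 9 of 13 p53 targets (-2.38), 8 of 12 feedback genes (-2.53) and 14 of 22 matrix genes (-1.36), with no member higher. Over all labelled genes 23.5% were lower and 0.606% higher, with a median of -1.37. The matrix median was about that of all labelled genes, and 11 of the 22 matrix genes lay above it. Scaled by labelled reads, the lower calls were 11 SRF and YAP genes, 8 cholesterol genes, 4 inhibitors, 5 chemokines, 4 p53 targets, 3 feedback genes and 2 matrix genes, and 17 immediate early genes, while 1 inhibitor, 1 p53 target and 3 matrix genes were higher. Of 10 interferon-stimulated genes 9 fell, with a median of -5.76, or -4.37 with the 5 members without reads in a group set at their bound, and 5 were lower when scaled by labelled reads. Labelled Egr1 was at 4187, 3069 and 2770 normalized counts at day -2 and 205, 182 and 165 at day 1 (log2 fold change -4.18 ± 0.28, P-adj = 1.15e-18), with no overlap.

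Several lists had no labelled member called higher although their total reads rose, and of all labelled genes only 0.606% were called higher. The median of all labelled genes was -1.37. Above it lay 17 of 18 replication genes, 24 of 24 mitosis genes and 16 of 17 ribosome biogenesis genes. None of 18 replication genes (median 0.32), 24 mitosis genes (0.50) or 17 ribosome biogenesis genes (-0.56) was called in labelled reads in either direction, and at an unadjusted p under 0.05 the numbers were 3, 1 and 4 (edgeR). With scaling by labelled reads 2 replication genes, 4 mitosis genes (Top2a among them, P-adj = 0.000407) and 1 ribosome biogenesis gene were higher. Labelled Top2a was at 36.5, 38.2 and 45.6 normalized counts at day -2 and 83.4, 64.0 and 57.8 at day 1 (log2 fold change 0.77 ± 0.46, P-adj = 0.162), groups that did not overlap. Labelled Cebpa (log2 fold change 0.85 ± 0.47, P-adj = 0.135) and Pparg (log2 fold change 0.45 ± 0.60, P-adj = 0.541) were not called, and of 6 late adipogenic factors none was (median -0.05, or 0.18 at the bound). Scaled by labelled reads, Cebpa was called higher (2.13, P-adj = 0.000325), and no other of these factors was. Labelled Cebpb (log2 fold change -1.50 ± 0.33, P-adj = 0.000349) and Cebpd (log2 fold change -2.33 ± 0.31, P-adj = 1.89e-08) were lower, but neither was called when scaled by labelled reads (-0.20, P-adj = 0.772, and -1.01, P-adj = 0.0139), nor Cebpb without the libraries lettered A (0.0302). Of 12 cAMP genes 6 were lower and none higher (median -2.20), or 3 without the libraries lettered A, and 3 lower and 2 higher when scaled by labelled reads. Of 13 G1 genes 8 were lower (median -1.60), or 2 without A and 1 when scaled by labelled reads. Of 11 SUMO conjugation genes 3 were lower (Pias1 and Mul1 among them, median -1.68), a share near the 23.5% of all labelled genes that were lower, and 1 was without A or when scaled by labelled reads. Of 13 SENP and PML body genes Uspl1 was lower (median -1.87), and none when scaled by labelled reads.

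Of the 6434 genes tested in both kinds of reads, 769 were called higher and 1094 lower in total reads. Labelled reads are part of the total reads of the same libraries, so the calls are not independent. Of the 39 called higher in labelled reads, 38 were also higher in total reads. Of the 1515 called lower in labelled reads, 643 were lower in total reads, 855 had no call there and 17 were higher. Seen from total reads, 38 of 769 higher genes and 643 of 1094 lower genes had the same call in labelled reads. Klf10 and Cebpb were among the 17, with labelled log2 fold changes of -1.18 and -1.50 and total log2 fold changes of 1.24 and 1.43. Scaling by labelled reads gave 0.16 for Klf10 and -0.20 for Cebpb, and neither was called. The labelled call of Klf10 was also lost without the libraries lettered A (P-adj = 0.0889) or C (0.0515).

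The test of whether induction differed between ML-792 and DMSO called 315 of 13331 genes in total reads (2.36%, P-adj under 0.1), 167 with a more positive change under ML-792 (1.25%) and 148 with a more negative one (1.11%). The test uses the same libraries as the 2 time contrasts and is not independent of them. Of the 167, 70 rose under ML-792 without a call in DMSO, 38 fell in DMSO without a call under ML-792, 29 rose in both, 19 fell in both, 3 rose under ML-792 and fell in DMSO, and 8 had no call in either. Of the 148, 52 fell under ML-792 without a call in DMSO, 36 rose in DMSO without a call under ML-792, 27 fell in both, 16 rose in both, 3 fell under ML-792 and rose in DMSO, and 14 had no call in either. A fit that blocked on the letter called 884 genes, 388 more positive and 496 more negative. Leaving out every library lettered A gave 23 genes, C 74 and B 466.

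The 4 highest fitted differences were those of Dlgap1, Rasd1, Tnfrsf22 and Clca3a2. Tnfrsf22, a decoy receptor for TRAIL (chr7:143634808-143638436, minus strand), was at 101, 52.3 and 101 normalized counts at day -2 and 4400, 2421 and 5389 at day 1 under ML-792, and at 69.0 ± 32.9 and 64.8 ± 18.2 in DMSO (SD, n = 3). The difference was 5.68 ± 0.57 (SE, P-adj = 4.67e-06). Clca3a2, of a family that regulates calcium-activated chloride channels, was at 2.67, 1.41 and 1.34 and 21.4, 50.0 and 38.2 under ML-792, with a difference of 5.41 (P-adj = 0.0171). In both genes the 3 day 1 libraries under ML-792 lay above the 3 of day -2, and the difference of Clca3a2 was not called without the libraries lettered A (P-adj = 0.276) or C (0.253). Dlgap1, a synaptic scaffold, and Rasd1 have a group with 0 or 1 read, their fitted differences depend on the prior count, and neither was called without the libraries of any 1 letter.

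Among the more negative differences, Kera, keratocan, a proteoglycan of the cornea, was at 9.80, 14.1 and 8.72 normalized counts at day -2 and 1.07, 12.8 and 15.8 at day 1 under ML-792, and at 15.2 ± 11.97 and 232 ± 17.8 in DMSO (SD, n = 3), a difference of -4.05 ± 0.98 (SE, P-adj = 0.0469). The ML-792 groups of Kera overlapped, and its DMSO mean was higher at day 1. The difference of Kera was not called without the libraries lettered A (P-adj = 0.485), B (0.114) or C (0.274), or without the ML-792 day -2 library B alone. Rnf112, a neuronal ring-finger protein, differed by -3.63 (P-adj = 0.0034). Sh2d4a and Zcchc5, the other leading genes, had 0 and 1 read at day 1 under ML-792 against 24 and 15 at day -2, so that Sh2d4a was at least 5.69-fold lower and Zcchc5 had a ratio of 10.7 (95% interval 1.64 to 449). These are changes on few reads, and neither difference was called without the libraries lettered A or C. The difference of Rnf112 had P-adj = 0.176 without the A libraries and 0.197 without C. Cd44, the hyaluronan receptor, had no called difference (-0.19, P-adj = 0.976) and a log2 fold change of -0.30 under ML-792 (P-adj = 0.0963). Labelled Cd44 was called lower under ML-792 (log2 fold change -1.58 ± 0.42, P-adj = 0.00261). This labelled call was lost without the libraries lettered A (P-adj = 0.0528) or C (0.0255), without single libraries, and when scaled by labelled reads (-0.27, P-adj = 0.735).

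In labelled reads 3 of 6434 genes differed (0.0466%): Mt2, Rgs2 and Cav1. The labelled difference of Klf10 was called in a fit blocked on the letter (1.54, P-adj = 0.0717) and with DESeq2 (1.56, P-adj = 0.00686). With DESeq2 those of Cebpd (-1.34, P-adj = 0.00646) and Cxcl12 (-1.44, P-adj = 0.0886) were called as well. Labelled Mt2 was at 508, 433 and 552 normalized counts at day -2 and 633, 477 and 679.7 at day 1 under ML-792, and at 600.4 ± 186 and 225 ± 28.9 in DMSO (SD, n = 3). It had no call under ML-792 (but was higher when scaled by labelled reads, P-adj = 6.74e-07) and fell in DMSO, and the difference was 1.68 ± 0.38 (SE, P-adj = 0.098). Labelled Rgs2 was at 354, 322 and 269.5 and 243, 183 and 242, and at 313 ± 83.4 and 788 ± 87.5 in DMSO (SD, n = 3), so it rose in DMSO and was not called under ML-792 (difference -1.83 ± 0.40, SE, P-adj = 0.0774). Cav1, caveolin-1 of the membrane pits that are abundant in fat cells (chr6:17339455-17341328, plus strand), had labelled values of 489, 446 and 457 and 28.9, 22.1 and 24.2 and fell further than in DMSO (difference -2.19 ± 0.44, SE, P-adj = 0.0302). Its total reads showed the same direction, with 5021, 5036 and 6598 normalized counts at day -2 and 1533, 1848 and 1824 at day 1 and a difference of -1.91 ± 0.24 (SE, P-adj = 9.3e-05). In labelled reads 312 genes had an unadjusted p under 0.05, and without the libraries lettered A, or without C, no gene was called, as against 8 without B. The calls of Mt2 and Rgs2 were also lost without single ML-792 libraries of either day, with no filter on low counts, and in a fit of the 12 libraries of these days alone, and that of Mt2 after subtraction of background labelled reads. The labelled difference of Cav1 was not called without the ML-792 day 1 library B (P-adj = 0.101) or C (0.168).

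**Figure D4:**
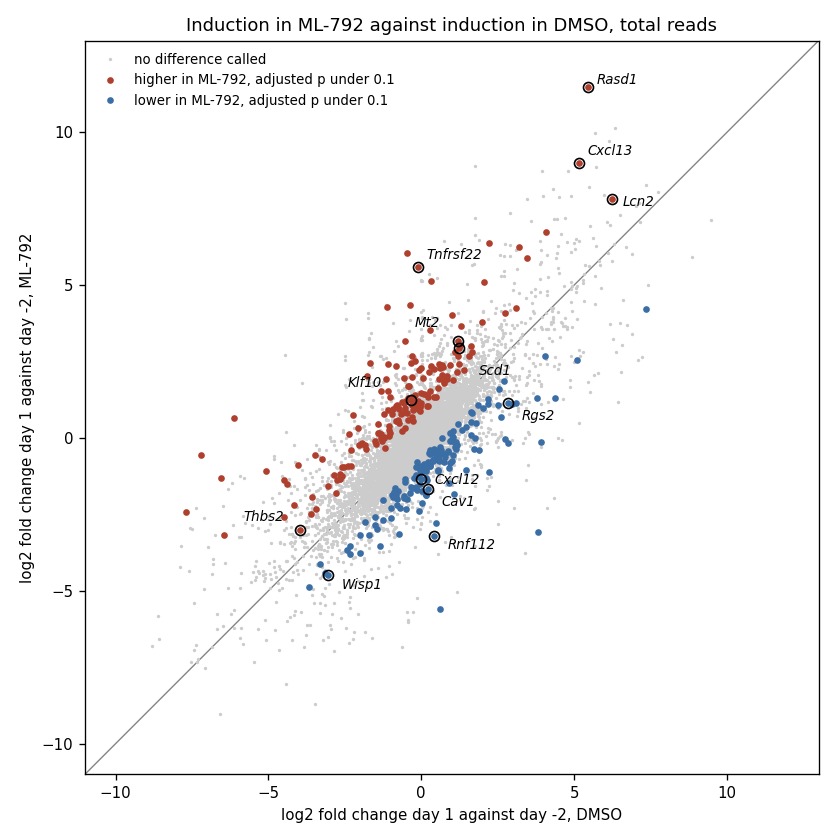
Log2 fold change of total reads from day -2 to day 1 under ML-792 (vertical axis) against that in DMSO (horizontal axis), 1 point a gene, with genes whose induction differed (edgeR, P-adj under 0.1) coloured. The 167 genes with a more positive change lie above the diagonal and the 148 with a more negative one below it, and each axis rests on the libraries of its own treatment.

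At day -2 itself no difference between ML-792 and DMSO was called (0% of genes in total reads and 0% in labelled reads, edgeR, P-adj under 0.1), with 184 and 46 genes at an unadjusted p under 0.05. On day 1, 1070 genes differed in total reads (8.03%) and 68 in labelled reads (1.06%). Klf10 at day 1 was higher by 1.30 ± 0.22 on the log2 scale with ML-792 than with DMSO (SE, P-adj = 0.000539), against -0.28 ± 0.22 at day -2. Cav1 at day 1 differed by -2.13 ± 0.18 (SE, P-adj = 3.88e-08), against -0.22 ± 0.17 at day -2, and Scd1 by 1.49 ± 0.22 (SE, P-adj = 0.000102), against -0.21 ± 0.22. The number of genes called at day 1 and not at day -2 was not itself tested as a difference, other than by the test that called 315 genes.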

How the data were processed

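QuantSeq 3′ end libraries of 3T3-L1 cells labelled with 4-thiouridine were sequenced by the authors, and the deposited tables hold raw read counts for each RefSeq 3′UTR entry of mm10, in 1 table for every read and in another for labelled reads (at least 1 T-to-C change). Per the study's methods and the labels' processing notes, base calls were made with bcl2fastq 2.17.1.14, and SlamDunk mapped the reads and counted conversions. Reads were not marked with molecular identifiers, so intervals and floors cover counting error only. Among the library columns, 6 matched no sample and were not used.

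Libraries were grouped by their labels. The 24 libraries entered 1 edgeR 4.0.16 quasi-likelihood fit (robust, R 4.3.3, limma 3.58.1) with 8 condition means. TMM factors of the total counts were also applied to labelled counts. Entries passed filterByExpr (minimum count 10, minimum total 15), which left 26563 in total and 10589 in labelled reads. P-values were adjusted by Benjamini-Hochberg over all entries, and calls were made at 0.01 for changes over time and 0.1 for differences between treatments. A prior count of 2 was used for log2 normalized counts, and the fitted fold changes used edgeR's default prior count. Nothing beyond the study's description as biological replicates says how cultures were kept apart, so p-values measure the spread between these samples. Ratios with 1 to 3 reads in a group have exact 95% intervals, and a group without reads was set to 3 reads over its libraries. The steps were tested on simulated data.

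Same-letter libraries deviated together in total reads (correlations of deviations 0.179, 0.523 and 0.288 for A, B and C), so values from a fit blocked on the letter are given where they change the call of a gene described in the text or move a count by over 1.5 times.

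The libraries, the 411 genes of 20 lists and the tests were chosen with earlier results of these data known. Genes named are those the study names, the 5 highest and 5 lowest called genes whose libraries do not overlap, in each list up to 3 members by adjusted p in total and 2 in labelled reads, the 4 highest and 4 lowest called differences, and Pparg, Cebpa, Cebpb and Cebpd. Other list members were named after their values were seen. A few genes that this rule names are not reported here. Alternatives were DESeq2 1.42.0, other filters, 1 entry per gene, fits on fewer libraries, other scalings of labelled reads and leaving out letters or single libraries. Promoters are RefSeq's, of GRCm38.p6.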

Additional observations from a re-analysis of the deposited data

Results flagged for a closer look

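Named genes are listed here because the test of their induction in ML-792 against that in DMSO passed P-adj under 0.1 (edgeR). All values are log2 fold changes from day -2 to day 1 under ML-792 minus those in DMSO. In total reads the fat cell genes Scd1 (1.69), Dgat2 (1.49) and Acsl1 (1.12), the hormone targets Mt2 (1.98) and Lcn2 (1.55), the regulators Klf10 (1.57), Dusp10 (1.35) and Foxo1 (0.86), the matrix gene Thbs2 (0.97), the chemokine gene Cxcl13 (3.82, not called without the libraries lettered A, P-adj = 0.968, or C, 0.198) and the genes Tnfrsf22 (5.68) and Clca3a2 (5.41) had a more positive change. Rasd1 (6.01) and Dlgap1 (6.62) did too, on fitted values that depend on the prior count because a group had 0 or 1 read.

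A more negative change in total reads was found for Cav1 (-1.91), Rgs2 (-1.70), Wisp1 (-1.45), Cxcl12 (-1.33), Egr3 (-1.27), Kera (-4.05) and Rnf112 (-3.63), and for Sh2d4a (-6.21) and Zcchc5 (-6.91), which had 0 and 1 read at day 1. In labelled reads the values were 1.68 for Mt2, -1.83 for Rgs2 and -2.19 for Cav1.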

How the results depend on the processing

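Counts of calls by entry moved with some settings, and the causes were not tested except where the setting's own construction changes the number of entries or samples. In total reads the 5442 changes over time became 3550 with 1 entry per gene, and ranged from 1948 (without A) to 6342 (without B) when libraries were left out. The 487 differences became 833 with DESeq2 and 1442 with the replicate block, and 37 (without A) to 738 (without B) with libraries left out. The 2514 labelled changes became 1550 with 1 entry per gene and 561 when scaled by labelled reads, and 804 (without A) to 2074 (without ML-792 day -2 B) with libraries left out. The 4 labelled differences became 37 with DESeq2, 2 with no filter, 7 with 1 entry per gene and 17 with the replicate block, and 0 to 12 with libraries left out. In labelled reads same-letter deviations correlated at 0.0861, 0.187 and 0.063, against a mean of -0.0561 between other letters. These reads are fewer and come from the same libraries, and whether the letters pair cultures was not tested. Scaling by labelled reads turned the median labelled change from -1.41 to 0.034 and that of Klf10 to 0.16. The labelled share of ML-792 fell under every setting run for it. The replicate block ended no call of a named gene. Counting each named gene, kind of reads and setting once, 3487 values over time kept their direction and side of the threshold, 155 were no longer called, 40 were newly called and 1 turned direction, and of the differences 710 kept it, 91 were no longer called and 10 were newly called. With 136029 to 209342 labelled reads in a day 1 library, labelled genes of few reads have wide errors, as for Wfdc21, Uspl1 and Mul1, whose calls were lost without single libraries, as were those of Pias2, Nsmce2, Plk1 and Elovl6 in total reads.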
